A study of Homo sapiens with 6 samples.

Results

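N-Myc bound 2674 sites that lay at promoters listed on a single DNA strand, were not shared with JMJD6 and did not fall in a super-enhancer. These sites were 26.3% of the 10172 N-Myc peaks found in common by 3 replicates. They were selected on the deposited positions alone: an autosomal N-Myc peak was taken when it was absent from the list shared with JMJD6, did not overlap a super-enhancer bound by N-Myc, and overlapped by at least 1 bp an N-Myc-bound promoter (1 kb on each side of a RefSeq start site) of 1 strand only. Peaks at promoters of both strands, of which there were 744, and 2563 peaks in typical enhancers away from promoters served as comparisons. Being at a promoter, being on 1 strand and lacking JMJD6 are therefore properties of the choice, not results.

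Chromatin immunoprecipitation followed by sequencing was carried out in CHP-134 cells with an antibody against N-Myc or against JMJD6, in 3 replicates each. CHP-134 is a human neuroblastoma cell line with amplified MYCN, and all 6 samples came from this 1 line, with no treatment named in the labels, so the lists describe N-Myc in a single genetic background with very high N-Myc. N-Myc chromatin was fixed with formaldehyde alone, whereas JMJD6 chromatin was also fixed with disuccinimidyl glutarate, so that absence of JMJD6 from a site cannot be told apart from the difference in fixation. The deposited lists give positions but no height, q-value or read count, so the lists used here carry no value per replicate and not the depth behind a peak, and peak width in bp is the only size they give.

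N-Myc, encoded by MYCN, is a basic helix-loop-helix leucine zipper transcription factor of the developing nervous system. It binds DNA as a dimer with MAX, with highest affinity for the palindromic E-box CACGTG, called canonical below, and with lower affinity for related hexamers. Those searched here as variants were CACGCG, which holds a CpG at its end, CATGTG, which holds none, CATGCG, which is part of the NRF1 core, and lastly CACGAG. Myc proteins are best known for binding promoters of genes of ribosome production, translation, nucleotide synthesis and cell cycle entry, many of which lie in CpG islands. MAX also pairs with the MXD proteins and MNT, which oppose Myc at the same sites.

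The first set of sequences comes from genes with 4 or more canonical E-boxes in their member peaks, and shows how close together these can lie. All sequences below are from the GRCh37 reference in the direction of the gene, 5′ to 3′, with the canonical E-box in capitals, and were taken outside GENCODE exons and ended before any listed start site they would have crossed. CDK4 encodes a G1 cyclin-dependent kinase, CIART and NR1D1 are repressors of the circadian clock, and TFAP4 is a basic helix-loop-helix factor known as a Myc target.
CDK4 (chr12:58146254-58146392, - strand): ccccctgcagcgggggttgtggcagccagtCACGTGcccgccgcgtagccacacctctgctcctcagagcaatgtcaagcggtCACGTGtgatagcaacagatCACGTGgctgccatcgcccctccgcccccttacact
CIART (chr1:150254806-150254941, + strand): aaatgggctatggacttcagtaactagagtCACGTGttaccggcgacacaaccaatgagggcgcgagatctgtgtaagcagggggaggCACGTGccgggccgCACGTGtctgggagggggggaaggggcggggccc
NR1D1 (chr17:38255366-38255446, - strand): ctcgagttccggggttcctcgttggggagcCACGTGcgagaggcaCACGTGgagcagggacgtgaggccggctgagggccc
TFAP4 (chr16:4322357-4322422, - strand): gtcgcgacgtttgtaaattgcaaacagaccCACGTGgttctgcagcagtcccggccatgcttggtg
The CDK4 stretch held 3 E-boxes between 130 and 57 bp upstream of the start site, within a peak of 874 bp that held 5 in all. The CIART stretch held 3 between 103 and 31 bp upstream, within a peak of 1178 bp with 5 in all. The NR1D1 stretch held 2 at 1564 and 1579 bp downstream of the nearest listed start site, in a peak of 649 bp with 3. The TFAP4 stretch held 1 of the 4 E-boxes that its 2 member peaks carried, 611 bp downstream.

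Single sites of genes long studied as Myc targets or partners are shown next. MAX is the partner of N-Myc, LDHA makes lactate dehydrogenase A, NPM1 is an abundant nucleolar protein, and CCND1 is cyclin D1.
MAX (chr14:65569549-65569614, - strand): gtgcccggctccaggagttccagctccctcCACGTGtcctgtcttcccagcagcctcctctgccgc
LDHA (chr11:18415895-18415934, + strand): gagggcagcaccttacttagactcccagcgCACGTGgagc
NPM1 (chr5:170815548-170815613, + strand): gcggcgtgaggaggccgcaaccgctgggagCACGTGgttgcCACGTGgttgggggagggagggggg
CCND1 (chr11:69455335-69455400, + strand): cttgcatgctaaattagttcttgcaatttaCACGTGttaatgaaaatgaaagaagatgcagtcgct
In LDHA the E-box lay 7 bp upstream of the start site and in MAX 169 bp upstream. In NPM1 the pair of E-boxes at 874 and 885 bp downstream fell in an intron, 27 bp from the peak midpoint for the first. In CCND1 the E-box lay 504 bp upstream.

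The third set shows ribosome genes, since nucleolar factors and ribosomal proteins lay far apart in how often a peak held an E-box (values below); these genes were chosen after their values were seen. TCOF1 supports RNA polymerase I transcription, SURF6 and NOP56 act in nucleolar ribosomal RNA processing, and RPL19 is a protein of the large ribosomal subunit.
TCOF1 (chr5:149737711-149737776, + strand): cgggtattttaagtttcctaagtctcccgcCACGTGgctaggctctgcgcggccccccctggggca
SURF6 (chr9:136203364-136203429, - strand): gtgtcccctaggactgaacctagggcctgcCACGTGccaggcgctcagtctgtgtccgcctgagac
NOP56 (chr20:2632492-2632557, + strand): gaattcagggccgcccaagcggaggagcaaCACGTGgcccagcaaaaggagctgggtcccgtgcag
RPL19 (chr17:37356275-37356340, + strand): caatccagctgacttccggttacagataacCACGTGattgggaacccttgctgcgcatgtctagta
The last set shows E-boxes with T before the hexamer, save the first of the 2 in EIF5A2. In DHPS and at the second E-box of EIF5A2 an A follows, a pair of flanks that differed in frequency between classes. The set was likewise picked with the sequences in view. DHPS makes hypusine on EIF5A and its close relative EIF5A2, NEU1 is a lysosomal sialidase, and SF3B1 is a core splicing factor.
DHPS (chr19:12792702-12792763, - strand): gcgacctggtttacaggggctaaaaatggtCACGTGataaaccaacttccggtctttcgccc
NEU1 (chr6:31830710-31830754, - strand): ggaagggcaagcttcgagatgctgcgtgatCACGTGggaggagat
SF3B1 (chr2:198299825-198299890, - strand): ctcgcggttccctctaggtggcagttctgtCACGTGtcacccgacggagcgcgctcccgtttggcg
EIF5A2 (chr3:170626553-170626643, - strand): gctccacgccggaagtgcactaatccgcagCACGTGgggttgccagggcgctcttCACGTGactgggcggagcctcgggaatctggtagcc

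The canonical E-box occurred in the 200 bp around the midpoint of 647 of 2674 one-strand peaks, or 24.2% (95% CI 22.6 to 25.9%). Intervals here are exact binomial intervals that cover counting error over peaks only, since peaks are not replicates. The share was 19.8% (147 of 744, 95% CI 17.0 to 22.8%) at two-strand promoters, with an odds ratio of 1.30 (95% CI 1.06 to 1.60, two-sided Fisher's exact test, adjusted p = 0.0183). It was 19.9% (511 of 2563, 95% CI 18.4 to 21.5%) in distal typical enhancers, with an odds ratio of 1.28 (95% CI 1.12 to 1.46, Fisher's exact test, adjusted p = 0.000443). Among starts of 15518 autosomal coding genes with no N-Myc peak within 1 kb, 4.52% of windows held the hexamer, with an odds ratio of 6.74 (95% CI 5.98 to 7.58, Fisher's exact test, adjusted p = 4.83e-204). In windows 5 kb from a member midpoint that no N-Myc peak or listed promoter covered, the share was 2.40% (127 of 5290). The largest of these 3 odds ratios was thus that against promoters without a peak.

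The 2 smaller differences depended on what was searched. Over whole peaks, 37.5% of one-strand and 35.1% of two-strand peaks held an E-box (odds ratio 1.11, adjusted p = 0.269 by Fisher's exact test), and in 400 bp the adjusted p was 0.0632 (Fisher's exact test). Against distal enhancers, the difference was lost among CpG-island-like peaks, with 22.3% and 20.6% (odds ratio 1.10, adjusted p = 0.719 by Fisher's exact test), among peaks at least as wide as the median (adjusted p = 0.106, Fisher's exact test), and in 100 bp (adjusted p = 0.101, Fisher's exact test). CpG-island-like means here a GC share of at least 0.5 and a CpG observed to expected ratio of at least 0.6 over 500 bp.

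**Figure D1:**
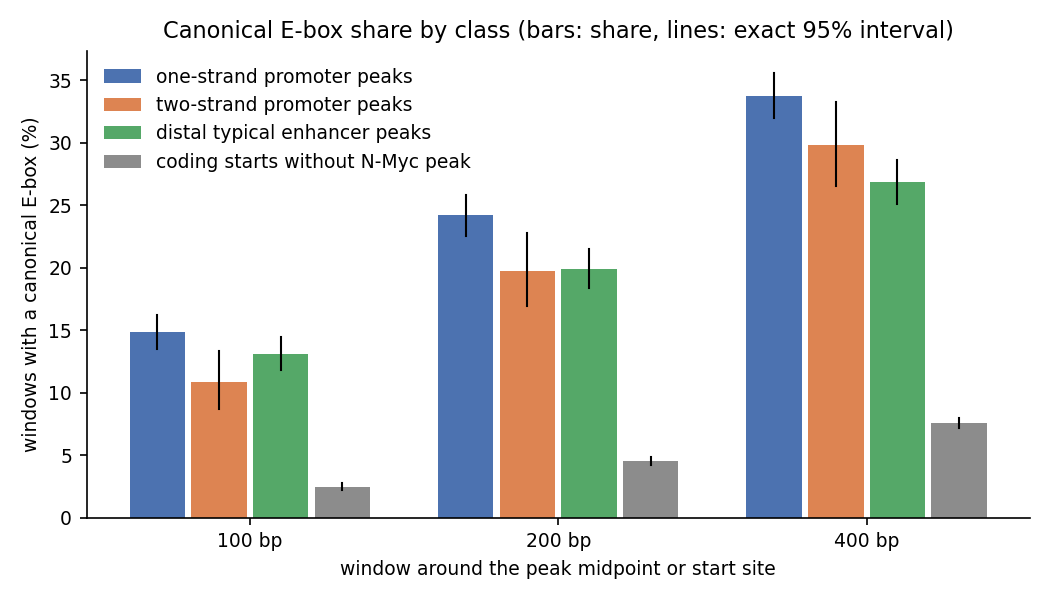
Share of windows with a canonical E-box (%, vertical axis) in 100, 200 and 400 bp around the peak midpoint or, for coding genes without an N-Myc peak within 1 kb, around the start site. Bars are shares and lines exact 95% intervals. At 200 bp the one-strand bar stands at 24.2%, the two-strand bar at 19.8%, the distal enhancer bar at 19.9% and the bar of genes without a peak at 4.52%.

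Most members held no canonical E-box anywhere in the peak: 1671 of 2674 (62.5%, 95% CI 60.6 to 64.3%) had none, 831 (31.1%) had 1, 152 (5.68%) had 2 and 20 (0.748%) had 3 or more. The most was 5, in the peaks of CIART, LINC01237, CDK4 and PPRC1, a coactivator related to PGC-1. Counting the 4 variant hexamers as well, 60.1% of members (1606, 95% CI 58.2 to 61.9%) held a canonical or variant E-box in the central 200 bp, and 39.9% held neither. The same share was 53.6% at two-strand promoters and 63.8% in distal enhancers, so that against distal enhancers its order was the reverse of that of the canonical E-box alone. E-boxes gathered near the centre of the peak. Of 1204 E-boxes in members, 36.6% lay within 50 bp of the midpoint, and the median distance was 78 bp. The same median was 96 bp for 327 E-boxes at two-strand promoters and 74.5 bp for 918 in distal enhancers. In N-Myc-only peaks outside listed regions it was 36.5 bp, and 61.1% of 1332 E-boxes lay within 50 bp of the midpoint. Such distances are bounded by peak width, and the peaks outside listed regions were narrower than members (median width 363 against 443 bp). How much of the difference this makes up was not tested.

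**Figure D2:**
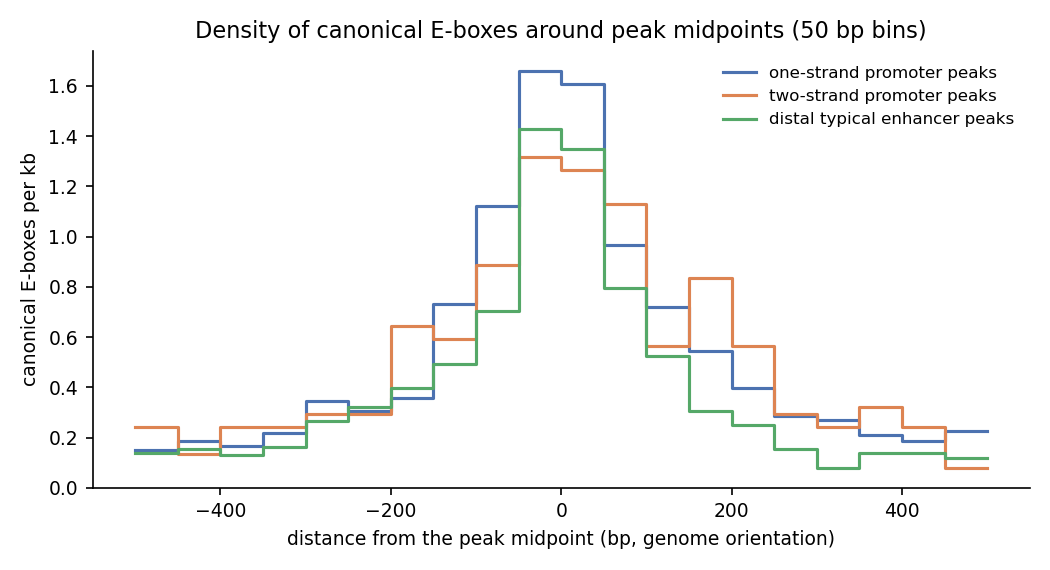
Canonical E-boxes per kb (vertical axis, from 0) in bins of 50 bp by distance from the peak midpoint in bp (horizontal axis, genome orientation), for the 3 classes of N-Myc-only peak. In one-strand peaks the density was 1.66 per kb in the 50 bp before the midpoint and 1.61 in the 50 bp after it, and fell to 0.150 and 0.224 at the outer edges.

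The bases beside the E-box were read as octamers, a sequence and its reverse complement counted as 1. In members the most frequent were CCACGTGG (228 of 1204, 18.9%), CCACGTGC (18.5%), ACACGTGG (15.0%) and CCACGTGA (13.2%). The octamer TCACGTGA, known as the preferred form for TFEB and MITF factors of lysosome genes and for USF proteins, made up 5.23% of E-boxes in members (95% CI 4.04 to 6.65%). It made up 9.17% (95% CI 6.28 to 12.8%) at two-strand promoters, 2.07% (95% CI 1.25 to 3.21%) in distal typical enhancers and 1.58% (95% CI 0.979 to 2.40%) in N-Myc-only peaks outside listed regions. CCACGTGA ran in the same order, with 13.2%, 21.4%, 11.2% and 7.58%. These octamers were singled out after their values were seen and were not tested.

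Of 17 motifs compared in the central 200 bp, 3 were more frequent and 3 less frequent at one-strand than at two-strand promoters (Fisher's exact test, Benjamini-Hochberg over 51 tests). Besides the canonical E-box, the variant CATGTG (12.6% of members, odds ratio 1.45, adjusted p = 0.0122 by Fisher's exact test) and CAGATG (12.5%, odds ratio 1.55, adjusted p = 0.00359 by Fisher's exact test), a site of HAND and NEUROD type neuronal factors, were more frequent. The SP/KLF GC box GGGCGG was less frequent (31.8% of members, odds ratio 0.707, adjusted p = 0.000141 by Fisher's exact test). So were the ETS site CCGGAAG (10.6%, odds ratio 0.654, adjusted p = 0.00115 by Fisher's exact test) and the YY1 site AAGATGGC (2.51%, odds ratio 0.452, adjusted p = 0.000396 by Fisher's exact test). At two-strand promoters these shares were 9.01% for CATGTG, 8.47% for CAGATG, 39.8% for the GC box, 15.3% for the ETS site and 5.38% for the YY1 site.

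Against distal typical enhancers 11 motifs were more and 5 less frequent. The ETS site differed most upwards (odds ratio 8.80, 95% CI 6.12 to 13.0), followed by the NRF1 core GCATGCGC (6.88) and the motif TCTCGCGA (5.69). Downwards, CAGATG (odds ratio 0.222), CATGTG (0.256), the GATA site AGATAA (0.307) and the AP-1 site TGAGTCA (0.513) were among those less frequent. The CCAAT box did not pass the test (25.5% of members, odds ratio 1.07, 95% CI 0.939 to 1.21, Fisher's exact test, adjusted p = 0.373). The variant E-boxes thus went both ways: CACGCG (16.9% of members, odds ratio 3.28), CATGCG (1.66) and CACGAG (1.65) were more frequent at promoters, and CATGTG less. Whether the base composition of the hexamers plays a part was not tested.

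Against promoters without an N-Myc peak, the canonical E-box had the highest odds ratio of the 17 motifs, and all 4 variants were also more frequent: CACGAG (13.3% of members, odds ratio 3.36), CATGTG (2.57), CATGCG (1.99) and CACGCG (1.90). CAGATG (1.91) and TCTCGCGA (1.76) were more frequent too. The GC box was less frequent (31.8% against 53.1%, odds ratio 0.413), as was the CRE TGACGTCA (0.652, adjusted p = 0.0281 by Fisher's exact test). Windows of genes without a peak were centred on the start site and those of members on the peak midpoint. Among the 779 members with a midpoint from 100 bp upstream to 100 bp downstream of the start, 19.0% (95% CI 16.3 to 21.9%) still held the canonical E-box.

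**Figure D3:**
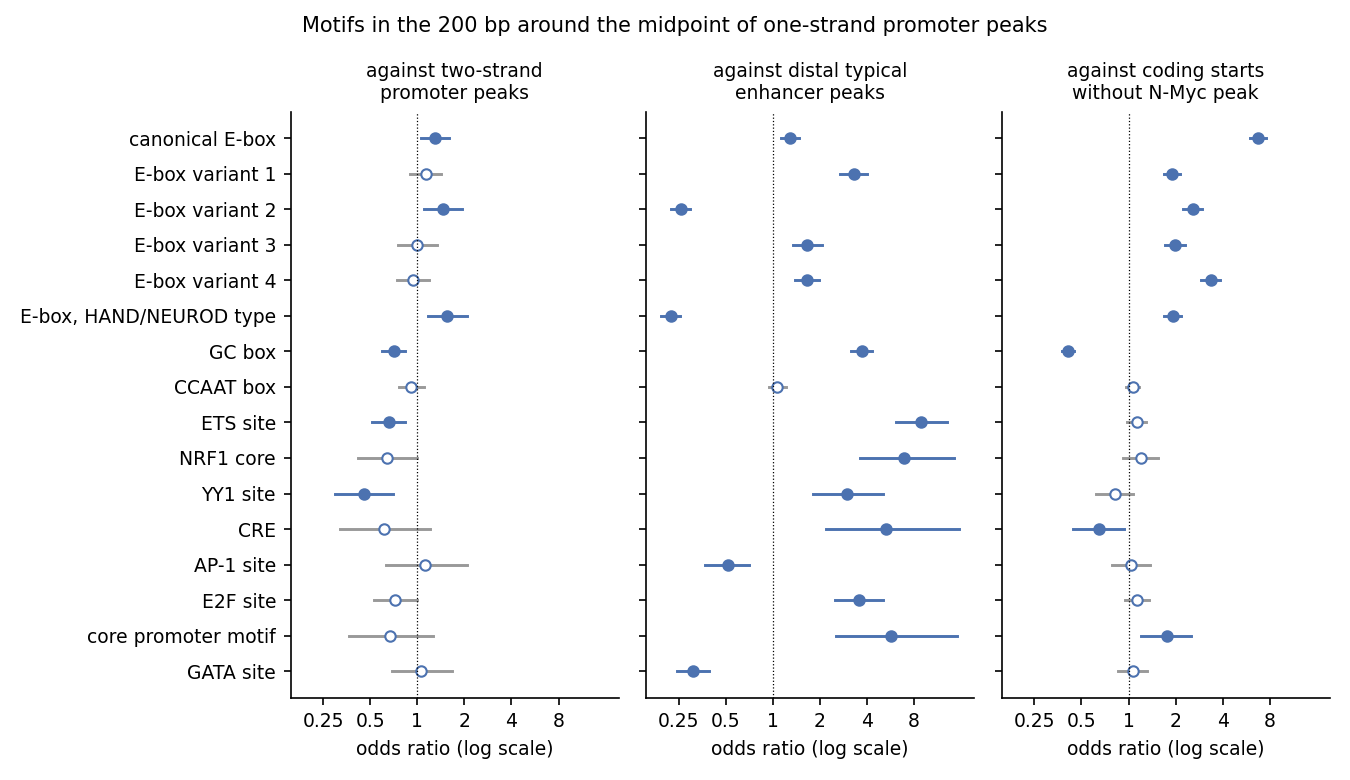
Odds ratios (log scale, horizontal axis) of the motifs shown in the 200 bp around one-strand peak midpoints against 3 comparison sets, with exact 95% intervals. Filled points have an adjusted p under 0.05. E-box variant 1 is CACGCG, E-box variant 2 is CATGTG, E-box variant 3 is CATGCG and E-box variant 4 is CACGAG, while the HAND/NEUROD type stands for CAGATG and the core promoter motif for TCTCGCGA. The canonical E-box lies right of 1 in all 3 panels, at 1.30, 1.28 and 6.74.

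Peaks sat slightly upstream of the start site. The median midpoint was 43 bp upstream, with quartiles at 242.5 bp upstream and 187.75 bp downstream, and 29.2% of midpoints were within 100 bp of the start. The midpoint was downstream in 42.2% of members (1128 of 2674, 95% CI 40.3 to 44.1%), and in 35.5% when the nearest start site of the GENCODE annotation on the same strand was used. A shoulder of peaks lay inside the gene, with 359 midpoints more than 600 bp downstream against 211 more than 600 bp upstream. By annotation, 32.2% of midpoints were intergenic, 31.9% in introns, 19.7% in untranslated exon sequence, 12.4% in exons of non-coding transcripts and 3.78% in coding exons.

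Peaks at the start site and peaks away from it differed in sequence. With the midpoint within 100 bp of the start, 28.5% of peaks (95% CI 25.4 to 31.8%) held a canonical E-box, against 45.0% (95% CI 38.2 to 52.0%) of those more than 600 bp upstream and 49.3% (95% CI 44.02 to 54.6%) of those more than 600 bp downstream. The CpG-island-like share ran the other way, with 83.2% at the start, 39.8% far upstream and 42.3% far downstream, while the median width stayed between 423 and 525.5 bp in all 7 distance bins. Among CpG-island-like members alone, the E-box share of whole peaks was 31.3% (405 of 1294, 95% CI 28.8 to 33.9%) within 300 bp of the start, 42.8% (95% CI 36.99 to 48.7%) further upstream and 43.3% (95% CI 37.3 to 49.4%) further downstream. In the central 200 bp the lowest E-box share was instead 100 to 300 bp downstream (15.4%, 95% CI 11.1 to 20.6%), against 19.0% at the start. The bins were set after the values were seen, and the trend was not tested.

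E-boxes themselves were unevenly placed along the gene. Per kb of peak sequence, there were 1.19 (exact Poisson 95% CI 1.02 to 1.39) in the 100 bp before the start, 0.782 (0.636 to 0.953) in the 100 bp after it, 0.580 (0.470 to 0.709) from 100 to 300 bp downstream, and 1.12 (upper limit 1.29) beyond 600 bp downstream. The lowest density was thus from 100 to 300 bp inside the gene. Its interval did not overlap those of the 100 bp before the start or of the sequence from 300 to 600 bp downstream (0.973, 0.813 to 1.15). It did overlap that of the 100 bp after the start. This bin was picked after the values were seen, and no difference was tested.

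**Figure D4:**
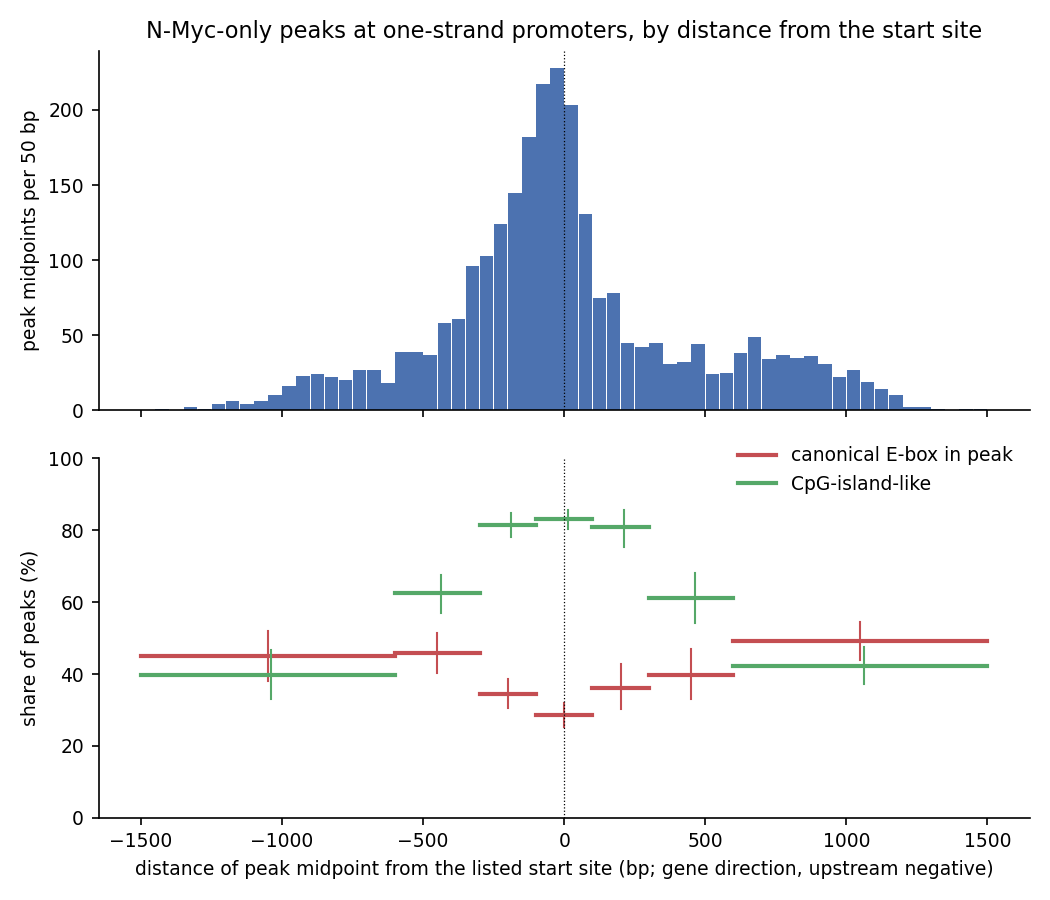
Top, number of peak midpoints per 50 bp (vertical axis) by distance from the nearest listed start site in bp (horizontal axis, upstream negative, gene direction). Bottom, share of peaks (%) with a canonical E-box anywhere in the peak and share that were CpG-island-like, for 7 distance bins, with exact 95% intervals as vertical lines and the outermost bins drawn to 1500 bp. The whole-peak E-box share is lowest at the start (28.5%), where the CpG-island-like share is highest (83.2%).

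Members were less often CpG-island-like than peaks at two-strand promoters, with 69.5% against 84.1% (odds ratio 0.430, 95% CI 0.344 to 0.534, two-sided Fisher's exact test, adjusted p = 9.73e-16). Median GC was 58.8% in members, 59.8% at two-strand promoters and 48.4% in distal enhancers. Within the members, the canonical E-box was less frequent in CpG-island-like peaks (415 of 1859, 22.3%) than in the others (232 of 815, 28.5%), with an odds ratio of 0.722 (95% CI 0.597 to 0.875, Fisher's exact test, adjusted p = 0.000951).

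Members overlapped a typical enhancer bound by N-Myc in 77.1% of cases (2062 of 2674), against 89.8% (668 of 744) at two-strand promoters (odds ratio 0.383, 95% CI 0.293 to 0.496, Fisher's exact test, adjusted p = 1.90e-15). These enhancers were built by joining H3K27ac peaks over gaps between them, after removing the surroundings of start sites, so that a joined region can span a promoter. H3K27ac marks active regulatory chromatin. The overlap was 70.6% for members more than 600 bp upstream and 81.6% for those more than 600 bp downstream.

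Widths of members ran from 192 to 1828 bp with a median of 443 bp and quartiles at 339 and 591.75 bp. Of members, 55.1% were wider than the median of all autosomal N-Myc peaks, 418 bp, against 61.0% at two-strand promoters (odds ratio 0.783, adjusted p = 0.00393 by Fisher's exact test). Width is tied to the overlap that set the classes, since a wide peak reaches promoters of both strands more easily; how much of the difference this makes up was not tested. The widest were at METTL2A, a tRNA methyltransferase gene (1828 bp, no E-box), CENPM, a centromere protein gene (1792 bp, 3 E-boxes), BRD2, a BET bromodomain gene (1769 bp, 2 E-boxes), SRSF1, a splicing regulator gene (1681 bp, no E-box), and the non-coding RNA LOC101928728 (1561 bp, 2 E-boxes). The narrowest were at EBPL (192 bp), TCEA2 (194 bp), DNLZ (198 bp), TMEM39B (199 bp) and PRKCE (199 bp), none with an E-box.

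The members carried 2564 gene symbols, of which 2372 had 1 member peak, 180 had 2 and 12 had 3. Strands were balanced, with 1360 members (50.9%, 95% CI 48.9 to 52.8%) at promoters of the plus strand. A single promoter row was overlapped by 81.4% of members. Of the symbols, 2271 (88.6%) were protein-coding by GENCODE, 133 were long non-coding RNAs, 23 small nucleolar RNAs and 18 microRNAs, and 88 had no match. The label of 1 strand held for the RefSeq list used by the study. In the fuller GENCODE annotation, 660 members (24.7%) had a start site of the opposite strand within 1 kb of the peak, and for 151 (5.65%) it belonged to a coding gene. Without those 660, the E-box comparison with two-strand promoters had an odds ratio of 1.32 (adjusted p = 0.0145, Fisher's exact test).

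The 12 genes with 3 separate member peaks were ELAVL2, a neuronal RNA-binding protein, DNAJC6, the neuronal auxilin, SLC6A15, a neutral amino acid transporter of neurons, FKBP5, a co-chaperone of steroid receptors, BSG, a membrane partner of lactate transporters, BRD2, and JPT1, LUC7L2, SNORA50C, TATDN2, XXYLT1 and ZNF331. In SLC6A15 the midpoints stood 679 bp upstream, 58 bp downstream and 787 bp downstream of listed starts, and the 3 peaks held 1, 1 and 2 E-boxes. In ELAVL2 the widths were 443, 519 and 593 bp and none held an E-box, as in the 3 peaks of BSG. The 3 peaks of ZNF331, a zinc finger gene, held 3 E-boxes in all.

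Near the limits of the choice, the member with the least promoter overlap was the downstream NR1D1 peak (10 bp), followed by MIR3193 (14 bp) and SLITRK5 (15 bp). The nearest peaks left out lay 7 bp from the ADSS promoter, 18 bp from NDUFAF6 and 25 bp from TUBB2B. On the strand criterion, the peaks at JUN and ZNF225 were left out for an overlap of 26 and 27 bp with a promoter of the other strand, and MTRF1 and LINS1 were kept at 6 and 22 bp from one.

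By the rule no member was shared with JMJD6, and none overlapped a JMJD6 peak. Of all 10019 autosomal N-Myc peaks, 9804 were not shared with JMJD6, so its absence was not particular to the members. A JMJD6 peak lay within 1 kb of 9 members (0.337%) and within 10 kb of 27 (1.01%), and the median distance was 2293 kb. These distances were not compared with those of other N-Myc peaks. In 8 members the same promoter was also listed for JMJD6, which is to say that both proteins had a peak at it in different places. These were UBQLN4, RNF44, PPRC1, PTDSS2, CCND1, PCF11, WBP2 and ROCK1P1, named after their values were seen. At CCND1 the peaks were 95 bp apart and at PPRC1 156 bp.

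Among 19202 autosomal coding genes, 2270 (11.8%) had a member peak, which is the background for the gene lists below, and 39.6% of those 2270 had a canonical E-box in a member peak. No list was tested. The lists of coding genes below 11.8% were those of chaperonins, catecholamine genes and HOX genes.

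The list of cytosolic ribosomal proteins held 83 genes, among them like-named ones such as RPL7L1, RPL22L1 and RPL39L. Of these 83 genes, 46 (55.4%) had a member peak and another 17 had only a two-strand peak. Their 47 member peaks were wide, with a median of 615 bp, and 44 had the midpoint within 300 bp of the start. RPL27 had a peak of 1335 bp, RPS14 of 1191 bp, RPL11 of 1064 bp and RPL23A of 1054 bp. Only 5 of the 47 held a canonical E-box (10.6%, 95% CI 3.55 to 23.1%), against 37.5% of all members and 31.3% of CpG-island-like members within 300 bp of the start. These 5 were at RPL11, RPL19, RPL23, RPL32 and RPL7L1, named after their values were seen. The YY1 site was in 7 and the motif TCTCGCGA in 6 of the 47 central windows, against 67 and 41 of all 2674. Both were singled out among the 17 motifs after their values were seen, and neither was tested in this list.

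The nucleolar factors that assemble the ribosome differed from the ribosomal proteins in E-box share. Of 78 such genes, 33 (42.3%) had a member peak, and 25 of their 34 peaks (73.5%, 95% CI 55.6 to 87.1%) held a canonical E-box. That is a whole-peak share, and these peaks were wider than members as a whole (medians 546.5 and 443 bp). In the central 200 bp, 13 of the 34 held one, against 2 of the 47 of ribosomal proteins and 647 of all 2674 members. NOP58, a box C/D nucleolar protein, had a peak of 1431 bp with an E-box 441 bp downstream of the start. WDR75 and NOL11, both of the small-subunit processome, had peaks of 1035 and 910 bp with an E-box 283 bp upstream and 481 bp downstream. NOLC1, which shuttles nucleolar proteins, had a peak of 979 bp without one. NCL, which encodes nucleolin, had 3 E-boxes between 639 and 721 bp downstream in a peak of 308 bp. The 2 lists were thus both bound often, at intervals of whole-peak E-box share that did not overlap. Their difference was found after the values were seen and was not tested.

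Other genes of translation and its organelles were also often bound. Mitochondrial ribosomal proteins had a member peak at 20 of 77 genes (25.97%), with 4 of 20 peaks holding an E-box, one of them at MRPS33 (839 bp). Of aminoacyl-tRNA synthetases, which charge transfer RNAs, 14 of 34 (41.2%) had one, the widest at TARS1 (1008 bp) and LARS1 (859 bp), and 5 of 15 peaks held an E-box. Of translation factors, 23 of 66 (34.8%) had one. EIF4B, a cofactor of the EIF4A helicase, had a peak of 1539 bp with E-boxes 180 and 999 bp downstream. EIF4EBP1, an inhibitor of the cap-binding protein EIF4E, had one of 1308 bp with an E-box 1343 bp downstream. Of mitochondrial import genes, 12 of 28 (42.9%) had one, among them TOMM5 (1083 bp) and HSPA9 (816 bp), the mitochondrial HSP70. In these groups the E-box counts lay between those of ribosomal proteins and nucleolar factors, with wide intervals.

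RNA processing genes followed. Splicing factors had a member peak at 31 of 84 genes (36.9%), and 8 of 33 peaks held an E-box. SRSF1 (1681 bp), SRSF7 (946 bp), SNRPE (859 bp) and HNRNPUL1 (754 bp) had the widest and none of these had an E-box. DEAD and DEAH box helicases, which unwind RNA, had 16 of 51 genes (31.4%), with E-boxes in 9 of 19 peaks, as at DDX18, 15 bp downstream of the start. Nucleoporin and nuclear transport genes had 21 of 56 (37.5%), with NUP155 (1078 bp) and NUP85 (1042 bp) the widest and E-boxes in 7 of 23 peaks.

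In purine and pyrimidine synthesis, 9 of 28 genes (32.1%) had a member peak, and 6 of the 9 peaks held an E-box. CAD, which starts pyrimidine synthesis, had 2 E-boxes, 65 and 94 bp downstream of the start, in a peak of 620 bp. DCTPP1, NME1 and DHODH had 2 each. In glycolysis, 5 of 22 genes (22.7%) had a peak, and LDHA, LDHB, ALDOA and PKM held an E-box while the GAPDH peak of 992 bp did not. In one-carbon metabolism, 6 of 20 genes (30%) had one, and SHMT2, the mitochondrial serine hydroxymethyltransferase, had E-boxes 127 bp upstream and 7 bp downstream. In polyamine and hypusine synthesis, 5 of 13 (38.5%) had one, namely EIF5A, EIF5A2, DHPS, AMD1 and AZIN1, and 2 of 6 peaks held an E-box.

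Cell cycle genes included both E2F activators and G1 kinases. In the list of E2F genes, G1 cyclins and CDKs, 10 of 29 (34.5%) had a member peak. E2F1 had a peak of 988 bp centred 1097 bp inside the gene, with an E-box 676 bp downstream. E2F2 had one of 663 bp centred 283 bp upstream, and E2F3 had peaks of 298 and 786 bp, none with an E-box. The CDK4 and CCND1 peaks are shown above, and CDKN2D, a CDK inhibitor, had a peak of 730 bp with an E-box 671 bp upstream. Replication licensing genes had 5 of 25 (20%), namely CDC6, CDC7, MCM3, GMNN and MCM10, and proteasome genes 13 of 47 (27.7%).

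In the list of the Myc network itself, 4 of 13 genes (30.8%) had a member peak, and MXI1 had another N-Myc-listed promoter. MAX had peaks of 302 and 334 bp, 221 and 878 bp upstream, and MXD1, a MAX-binding antagonist of Myc, had peaks of 403 and 501 bp. MNT, another antagonist, had a peak of 705 bp without an E-box, 756 bp upstream. MYCN had a peak of 800 bp centred 187 bp upstream of a listed start, without a canonical E-box. MYCN lies in the region amplified in this line, and its copy number was not measured here.

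Among adrenergic transcription factors, which set the neuroblastoma cell state, 4 of 25 (16.0%) had a member peak, at DACH1 (581 bp), ZNF536 (403 bp), GATA2 (291 bp) and SOX11 (285 bp), and only the GATA2 peak held an E-box. Among catecholamine genes and neuronal receptors 1 of 17 had one, SLC6A2, the noradrenaline transporter (308 bp, no E-box). HOX genes had 2 of 39, HOXD13 and HOXC8. Set beside the 11.8% of all coding genes, these shares rest on 4, 1 and 2 genes, and no difference from it was tested. EYA1, MEIS1 and SATB1 of the adrenergic list had another N-Myc-listed promoter. Peaks in super-enhancers were left out by the rule. LIN28B, an RNA-binding oncogene of neuroblastoma, had peaks of 612 and 1120 bp, with an E-box 16 bp downstream of the start in the first.

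Other lists had single features. Circadian clock genes had 6 of 22 (27.3%), and CIART and NR1D1 carried 5 and 4 E-boxes. Lysosome and V-ATPase genes had 6 of 49 (12.2%), near background, and NEU1 and CLN3 held E-boxes. Respiratory complex I had 6 of 44 (13.6%), with another 13 genes bound only at two-strand promoters, and the chaperonin list 1 of 11, CCT8, with 7 others at two-strand promoters. ZNF zinc finger genes had 99 of 496 (19.96%), and 23 of their 106 peaks (21.7%, 95% CI 14.3 to 30.8%) held an E-box. Histone demethylase and PRMT genes had 5 of 33 (15.2%), at CARM1, KDM1A, KDM2A, KDM3A and KDM4C. Of well-known Myc targets and neuroblastoma genes looked up by name, 21 of 45 had a member peak, among them EIF4A1, EIF4E, BIRC5, PTMA and MXRA7, while APEX1, ENO1 and ODC1 had only a two-strand peak and MXI1 and RCC1 another listed promoter.

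Non-coding genes also had member peaks. By GENCODE type, 0.732% of 18159 long non-coding RNA genes, 5.54% of 415 small nucleolar RNA genes and 0.635% of 2836 microRNA genes had one. A gene counted only if its symbol matched one in the RefSeq promoter list, so these shares may be too low. The symbol lists that follow have other totals, so their shares cannot be set against these. Of 3966 symbols listed as long non-coding RNAs, 115 had a member peak. The LOC symbols named in this list were all among those 115, and none was among its symbols with only a two-strand peak. Yet LOC100379224 lay at a two-strand peak. LOC symbols may therefore have entered the list as members, so no share of bound genes is read from it. With the same limit, 50 of the 121 peaks (41.3%, 95% CI 32.4 to 50.6%) held an E-box. Of these peaks 32.2% were CpG-island-like, against 69.5% of all members. LINC01237 carried 5 E-boxes from 457 to 1154 bp downstream in a peak of 988 bp, and LOC400940 carried 4 between 1111 and 917 bp upstream in a peak of 689 bp. Small nucleolar and nuclear RNA genes had one at 34 of 2161 symbols (1.57%), several sharing a peak with a host gene, such as SNORD42B with RPL23A and SNORD95 with RACK1. MicroRNA genes, host gene symbols included, had one at 40 of 1312 symbols (3.05%), the widest peaks being at MIR181A2HG (1059 bp), MIR3917 (983 bp, shared with STMN1), MIR301B (919 bp) and MIR3193 (763 bp). A few symbols, such as the MIR1244 copies, name several identical genes, so the peak cannot be assigned to one of them.

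**Figure D5:**
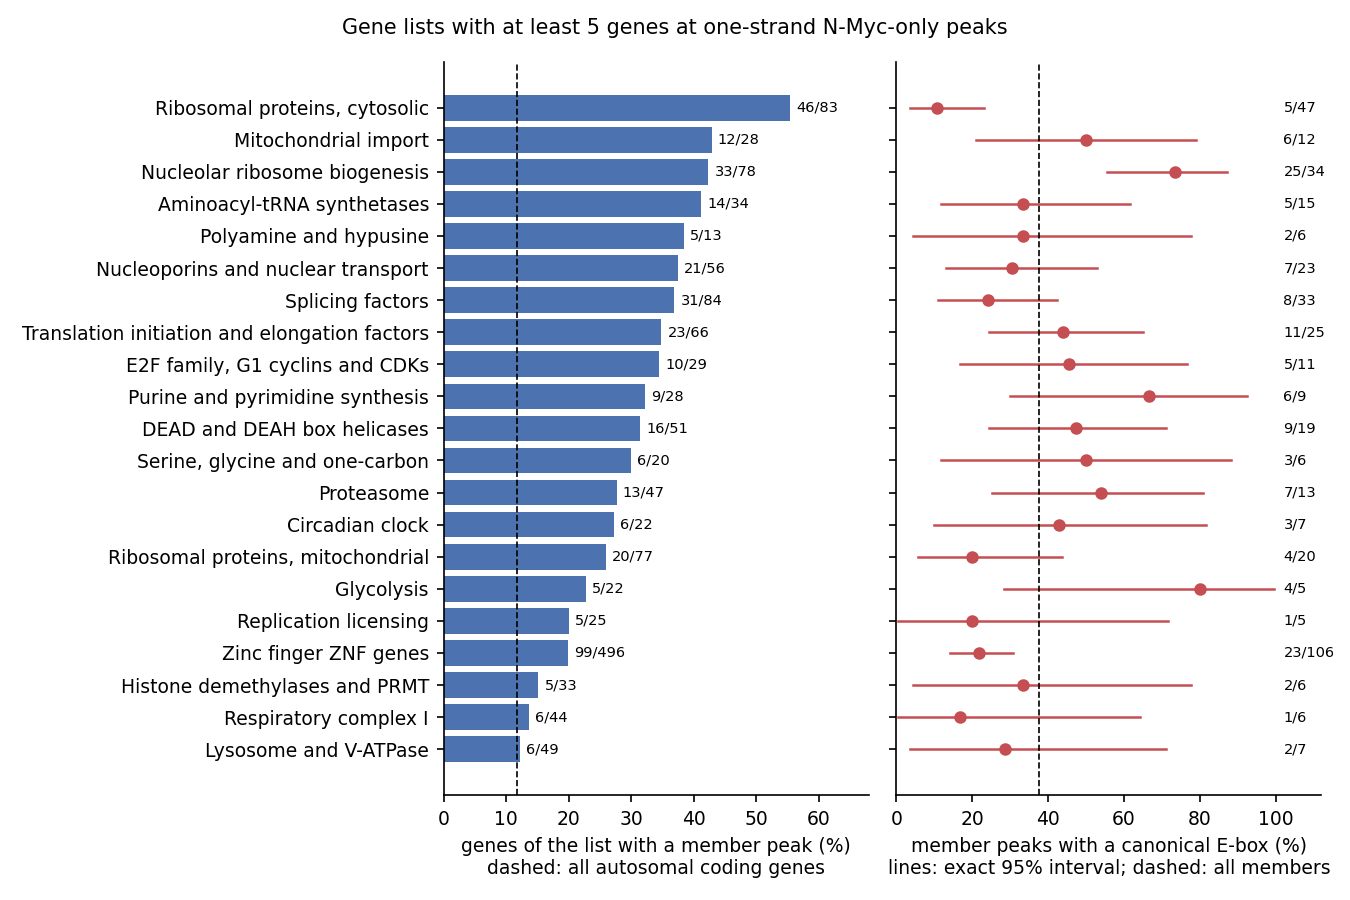
Left, share of genes with a member peak (%) for the lists drawn, with counts beside the bars and a dashed line at 11.8%, the share of all autosomal coding genes. Left out are the non-coding lists, the genes looked up by name and lists with few such genes. The latter are the Myc network, adrenergic, catecholamine, chaperonin and HOX lists, of which the catecholamine, chaperonin and HOX lists lay below the dashed line. Right, share of the member peaks of the same lists with a canonical E-box anywhere in the peak (%), with exact 95% intervals, counts, and a dashed line at 37.5%, the share of all members. Cytosolic ribosomal proteins are highest on the left (55.4%) and stand at 10.6% on the right, where nucleolar ribosome biogenesis stands at 73.5%.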

How the data were processed

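ChIP-seq of CHP-134 cells was grouped by the antibody in the labels, 3 replicates for N-Myc and 3 for JMJD6. According to the study's methods and the submitters' processing notes, the authors aligned reads with BWA to hg19, used SAMtools and BEDTools, called peaks against input with MACS2 2.1.1.20160309 (q-value under 0.05) and kept those present in all 3 replicates. Promoters were 1 kb on each side of RefSeq starts, and enhancers came from ROSE on H3K27ac. The 12 deposited lists hold positions in bp (no score or count), so they give no value per sample, depth or replicate error.

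The members, gene lists, motifs and tests were chosen with earlier results of these data known. Of 2600 members whose symbol matched GENCODE 44 (GRCh37), 87.8% had the listed start within 100 bp of an annotated one. Motifs were exact matches on both strands of GRCh37, read with pysam 0.24.0. CATGCG lies within the NRF1 core GCATGCGC, and no other searched motif contains another. Symbols were brought up to date with the RefSeq gene table (names only). Shares have exact (Clopper-Pearson) 95% intervals and were set against each other by Fisher's exact test, two-sided (SciPy 1.17.1), adjusted by Benjamini-Hochberg over 51 motif tests (17 motifs, 3 comparisons) and separately over 4 other shares. The steps were tested on simulated data. Plots used matplotlib 3.10.9. Named genes were up to 4 per list by peak width, genes looked up by name, the 5 widest, the 5 narrowest, the 5 with most E-boxes, genes with 3 member peaks and peaks at the limits of the choice; other genes were named after their values were seen. Alternatives covered window, overlap, base composition, width, clustered peaks, copy-rich regions and annotation. A motif and some genes among those analysed are not reported here by name.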

Additional observations from a re-analysis of the deposited data

How the results depend on the processing

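No paired analysis was possible because the lists hold 1 set of peaks over all replicates of an antibody and no column per sample; for the same reason no replicate could be left out. Of 43 alternative values, 35 kept the direction and the side of the threshold (or, for counts, stayed within 1.5 times), and no direction turned. The canonical E-box odds ratio of one-strand against two-strand promoters was 1.199 in 400 bp and 1.11 in whole peaks, past the threshold in neither. Against distal typical enhancers it was 1.16 in 100 bp, 1.18 in peaks at least as wide as the median and 1.10 in CpG-island-like peaks, again not past it. The cause was not tested. Against promoters without a peak it ranged from 4.88 to 6.78. The number of motifs other than the canonical E-box that differed from two-strand promoters rose from 5 to 8 in 400 bp and 8 in whole peaks. The share of midpoints downstream was 35.5% with annotated start sites. All other comparisons with two-strand promoters (CpG-island-like share, width, typical enhancer share) kept their calls. Width was the only stand-in for a stricter peak threshold.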
